A study of Rattus norvegicus with 12 samples.

Results

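Cathepsins are the proteases of the lysosome, and cystatins are proteins that block the cysteine cathepsins. The transcripts of 8 cathepsin genes (Ctsb, Ctsc, Ctsd, Ctsh, Ctsk, Ctsl, Ctss and Ctsz) and 2 cystatin genes (Cst3 and Cstb) were followed in rat hearts after ischaemia and reperfusion. Their members are all probe sets whose annotation names one of these genes and no other gene. This gave 12 probe sets for 10 genes, of 10412 genes with such a probe set on the array. Ctsc and Ctsl have 2 probe sets each, and the other 8 genes have 1. RNA from 12 rats was hybridised to 1 array per rat, with 3 rats in each of 4 groups. In 7 d IR rats and 2 d IR rats the left anterior descending coronary artery (LAD) was closed for 30 min and reopened, and tissue was taken after 7 or 2 days of reperfusion. In 7 d sham rats and 2 d sham rats the operation was done without closing the artery, and tissue was taken after the same number of days. The labels call the tissue heart in all 12 samples and name the ventricle in 1. They give neither the rats' strain, sex or age, nor how much of each sample was infarct, border or remote muscle. A written design note names the 7 d sham group in 2 places, so groups were taken from each sample's own title. Below, each rat is called by the number in its title: 44, 47 and 48 (7 d IR), 80, 81 and 82 (7 d sham), 69, 73 and 76 (2 d IR), and 71, 72 and 74 (2 d sham). Values listed for a group follow that order of rats.

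Most cathepsins are made as inactive precursors, tagged with mannose 6-phosphate, carried to the lysosome and activated in its acid interior. Cathepsins B, C, H, K, L, S and Z use a cysteine in the active site, while cathepsin D uses aspartate. Macrophages carry many of these enzymes, cathepsins K, L and S can cleave collagen or elastin outside the cell, and cystatin C is the chief inhibitor in extracellular fluid. In infarcted hearts, macrophages clear dead muscle and fibroblasts then lay down a collagen scar.

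Promoter sequences were read from RefSeq (build GRCr8) for 9 of the 10 members. Ctsb was not matched. The 250 bases before the start of Ctsk, Ctss and Ctsd are shown because Ctsk and Ctss are near neighbours on chromosome 2 with different values at 2 d, and because Ctsd holds the most motif matches of the 9. Between Ctsk and Ctss the RefSeq table lists 1 locus, LOC134485802. Each sequence runs 5′ to 3′ on the gene's own strand and ends at the base before the start site. Capitals mark a motif found on either strand, here CACGTG (the E-box bound by TFEB and related factors) or GAGGAAGT (a PU.1 motif, which reads ACTTCCTC on the other strand). The Ctsk sequence is chr2:185747298-185747547 (plus strand), the Ctss sequence is chr2:185775146-185775395 (plus strand), and the Ctsd sequence is chr1:206968822-206969071 (minus strand).
Ctsk: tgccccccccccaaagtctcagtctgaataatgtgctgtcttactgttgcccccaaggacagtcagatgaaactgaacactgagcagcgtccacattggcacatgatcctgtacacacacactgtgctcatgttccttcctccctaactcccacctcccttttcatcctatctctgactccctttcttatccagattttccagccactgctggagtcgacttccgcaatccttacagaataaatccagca
Ctss: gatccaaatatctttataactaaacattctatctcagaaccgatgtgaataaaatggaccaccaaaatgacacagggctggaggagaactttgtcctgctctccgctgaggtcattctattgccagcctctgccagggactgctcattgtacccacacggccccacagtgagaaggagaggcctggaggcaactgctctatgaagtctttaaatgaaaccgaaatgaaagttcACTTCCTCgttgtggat
Ctsd: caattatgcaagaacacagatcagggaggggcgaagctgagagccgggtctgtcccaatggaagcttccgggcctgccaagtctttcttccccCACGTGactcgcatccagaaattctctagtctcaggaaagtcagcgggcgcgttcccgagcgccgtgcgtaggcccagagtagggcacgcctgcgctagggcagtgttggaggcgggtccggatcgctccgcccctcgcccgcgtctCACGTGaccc

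The Ctsk stretch holds no match, the Ctss stretch has a PU.1 match that starts at position -17 from the start site, and the Ctsd stretch has E-boxes at -157 and -10. Among the 9 member promoters, the E-box was found in 2 (Ctsd and Cstb, 22.2%), against 5.79% of 27457 rat promoters of this length. The PU.1 motif was found in 2 (Ctsc and Ctss, 22.2%), against 2.04% of all promoters. An AP-1 motif, TGANTCA, was found in 0 of the 9 (6.36% of all promoters), and the longer CLEAR consensus of lysosomal genes, a palindrome that contains CACGTG, was found in 0 (0.24% of all promoters). Only exact matches were counted, so sites that come close to a motif, such as the longer CLEAR consensus, are not covered. A match is a run of letters and does not show that a factor binds there.

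Measured values are MAS5 signals, 1 per probe set and array, scaled by the authors to a common level per array. Changes are differences of log2(signal + 195), IR minus sham, tested with limma over all 10527 probe sets that passed a filter on dim signals. All 12 member probe sets passed it and lay above the filter's level on all 12 arrays. A change passed where its p-value, adjusted over all tested probe sets by the Benjamini-Hochberg method, was under 0.05. Levels of different probe sets are not set against each other, because probes differ in brightness. In tissue RNA, more cells of a type and more RNA per cell cannot be told apart. The labels do not say how the rats were drawn, so p-values weigh group differences only against the spread between these samples.

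At 7 d, 5 of the 12 probe sets rose after IR and 0 fell: Ctsk, Ctss, Ctsz, Ctsh and Ctsb. Over all tested probe sets, 6.22% rose and 5.84% fell in this comparison. At 2 d, 5 of the 12, from 4 genes, rose and 0 fell: Ctsz, Ctss, both probe sets of Ctsl, and Ctsb. Over all tested probe sets, 1.88% rose and 0.589% fell at 2 d. Ctsb, Ctss and Ctsz rose at both days, and Ctsc, Ctsd, Cst3 and Cstb passed the test at neither. The median log2 change of the 12 probe sets was 0.44 at 7 d and 0.44 at 2 d, against medians over the tested genes of 0.0079 and 0.0072. All 3 IR rats lay above all 3 sham rats for 8 of the 12 probe sets at 7 d, where 16.6% of all tested probe sets were separated in this way. At 2 d this held for 7 of the 12, against 13.9%.

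Single rats weighed on these counts. In the 2 d IR group, rat 69 was the highest of its group for 10 of the 12 probe sets, and in the 7 d sham group, rat 82 was the lowest for 9. The number of calls over the whole array moved too, so the members' counts are given beside the calls in either direction over all probe sets. With all arrays, 1270 probe sets passed at 7 d and 260 at 2 d with limma. Without rat 82 the number of members that rose at 7 d was 1 (Ctsk), with 175 calls in all. It was 2 without 7 d IR rat 44 (Ctsh and Ctsk; 474 in all) and 3 without 7 d IR rat 47 (Ctsh, Ctsk and Ctss; 502 in all). Without rat 69, 2 d sham rat 71 or 2 d sham rat 72, the number of members that rose at 2 d was 0, with 2 calls in all in each of these fits. It was 1 without 2 d IR rat 76 (Ctsz; 147 in all) and 3 without 2 d sham rat 74 (100 in all). Without rats 69 and 82 together, 4 members rose at 7 d (541 in all) and 1 at 2 d (70 in all). Against the 6 sham rats of both days, 7 members rose at 7 d, both Ctsl probe sets among them (2428 in all), and 5 at 2 d (316 in all).

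**Figure D1:**
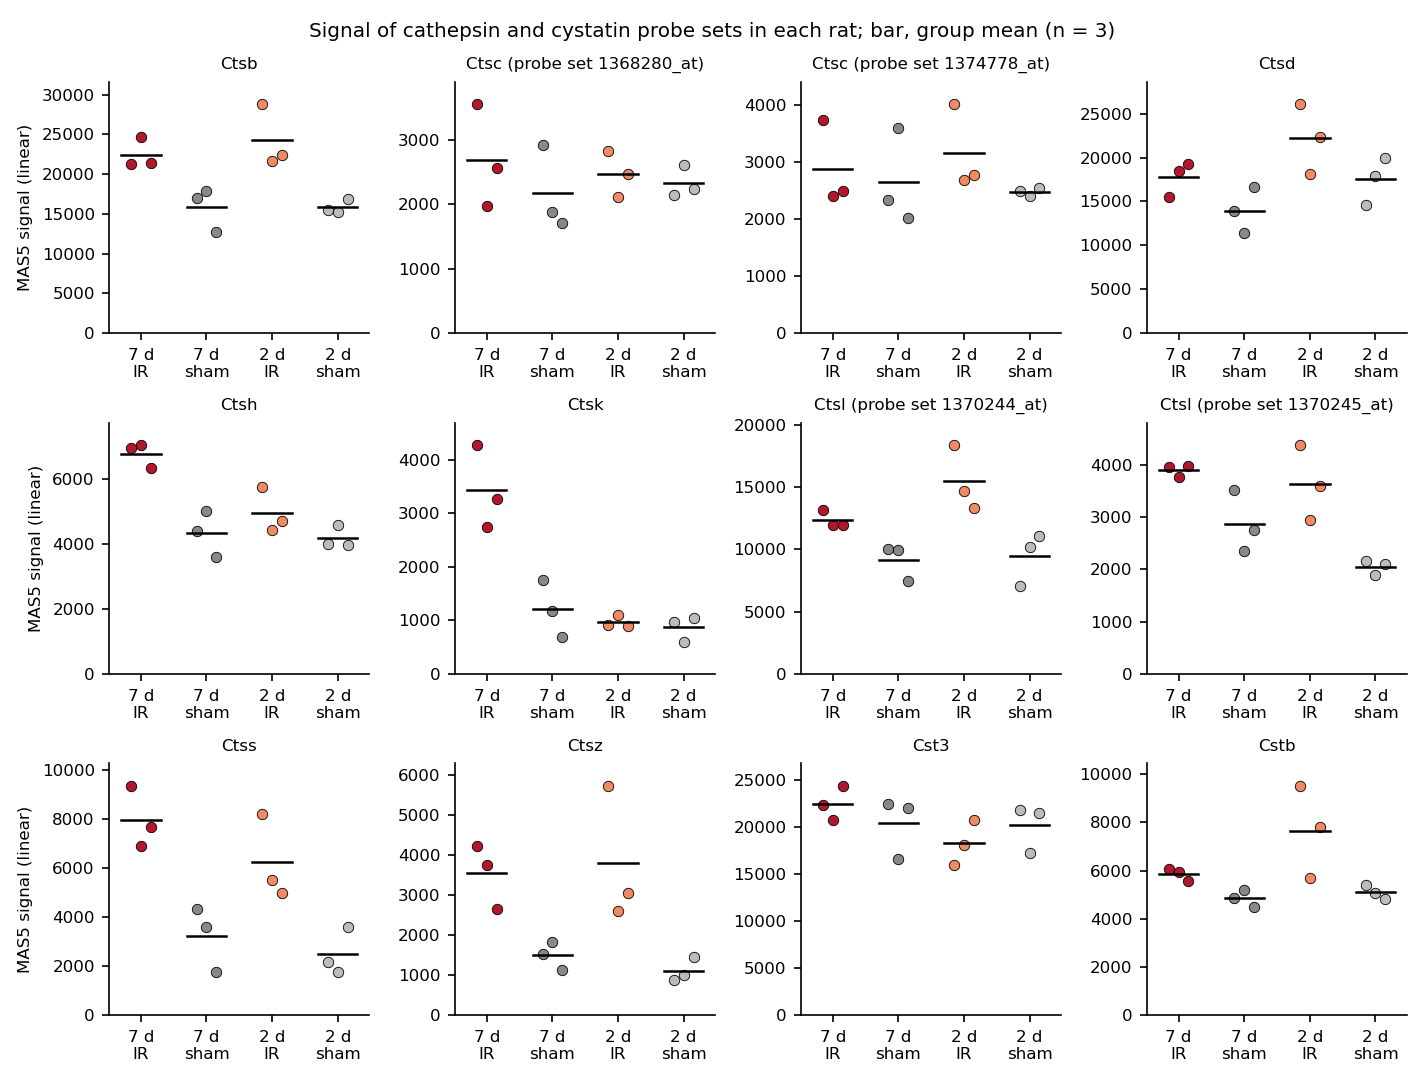
MAS5 signal (linear axis from 0) of the 12 cathepsin and cystatin probe sets in each of the 12 rats, by group; points are rats and bars are group means (n = 3). For Ctsk the 3 points of the 7 d IR group, 2744 to 4267, stand above all other points, while for Cst3 the IR and sham rats overlap on both days.

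The larger IR change came at 7 d for 6 probe sets: Ctsk, Ctss, Ctsh, Ctsd, Cst3 and Ctsc (1368280_at). It came at 2 d for the other 6: Ctsz, both of Ctsl, Cstb, Ctsb and Ctsc (1374778_at). Of all tested probe sets, 34.7% were led by 7 d and 31% by 2 d in this sense, and 34.3% had no positive change at either day. This ordering is a description, and its test is the difference between the 2 IR effects. With limma, 0 of the 12 probe sets passed that test after adjustment, as did 0.0095% of all tested probe sets, and 1 of the 12 (Ctsk) had an unadjusted p under 0.05 (7.14% of all).

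Among the collagen- and elastin-cleaving enzymes, cathepsin K, known for its role in bone resorption by osteoclasts, had the largest change at 7 d. The Ctsk probe set (1369947_at) read 4267, 2744 and 3274 in 7 d IR rats, against 1763, 1179 and 685 in 7 d sham rats. It read 922, 1100.4 and 901 in 2 d IR rats, against 971, 592 and 1042 in 2 d sham rats. The 7 d IR rats were thus above the other 9 rats, and the 2 d IR and 2 d sham rats overlapped. The group means were 3428 ± 773 and 1209 ± 539.7 in 7 d IR and 7 d sham rats, and 974.6 ± 109.5 and 868 ± 242 in 2 d IR and 2 d sham rats (SD, n = 3 each). Ctsk rose 2.68-fold at 7 d (log2 change 1.42, SE 0.25, limma adjusted p = 0.00726). At 2 d its log2 change was 0.16 (SE 0.25, limma adjusted p = 0.769). The 7 d effect exceeded the 2 d effect by 1.26 on the log2 scale, with a 95% interval of 0.50 to 2.02 (limma, unadjusted p = 0.00295, adjusted p = 0.413). Its 7 d call held in all 12 fits that left out 1 array, with adjusted p between 0.00214 and 0.0284.

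Cathepsin S, an elastin-cleaving enzyme that also trims the invariant chain in antigen-presenting cells, rose on both days. The Ctss probe set (1387005_at) read 9345, 6918 and 7669 in 7 d IR rats, against 4314, 3579.9 and 1739 in 7 d sham rats. It read 8235, 5521 and 4988 in 2 d IR rats, against 2172, 1755 and 3589.7 in 2 d sham rats. IR and sham rats did not overlap on either day, and sham rat 82 was the lowest of all 12. Ctss rose 2.53-fold at 7 d (log2 change 1.34, SE 0.29, limma adjusted p = 0.0128) and 2.43-fold at 2 d (log2 change 1.28, SE 0.29, limma adjusted p = 0.0383). The 2 effects differed by 0.06 on the log2 scale, with a 95% interval of -0.82 to 0.94. At 7 d the call was lost without rat 82 (log2 change 0.98, limma adjusted p = 0.0591) and without rat 44 (1.22, adjusted p = 0.0512). At 2 d it was lost without rat 69 (1.07, adjusted p = 0.211 with limma), 76, 71 or 72.

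Cathepsin L, an endopeptidase of general lysosomal protein breakdown, passed the test at 2 d with both of its probe sets. The probe set 1370244_at read 13136, 11966 and 11957 in 7 d IR rats, against 10003, 9929.7 and 7490.4 in 7 d sham rats. It read 18359, 14671 and 13352 in 2 d IR rats, against 7095, 10193 and 11092 in 2 d sham rats, so that IR and sham rats were apart on both days. Its 7 d change was 0.44 on the log2 scale (SE 0.17, limma adjusted p = 0.103), and it rose 1.64-fold at 2 d (log2 change 0.71, SE 0.17, adjusted p = 0.0431).

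The second Ctsl probe set, 1370245_at, carries the same accession in the annotation and read 3964, 3775 and 3987 in 7 d IR rats, against 3521, 2345 and 2761 in 7 d sham rats. It read 4374, 2944 and 3598 in 2 d IR rats, against 2161, 1887 and 2103 in 2 d sham rats. Again the IR rats lay above their shams on both days. Its 7 d change was 0.44 on the log2 scale (SE 0.16, limma adjusted p = 0.0818), and it rose 1.69-fold at 2 d (log2 change 0.76, SE 0.16, adjusted p = 0.0285). The 2 probe sets disagree on which IR group was brighter: 1370245_at had means of 3909 ± 116 in 7 d IR rats and 3639 ± 716 in 2 d IR rats, while 1370244_at had 12350.0 ± 678 in 7 d IR rats and 15460.0 ± 2595 in 2 d IR rats (SD, n = 3 each). Neither difference between the IR groups passed the test (limma adjusted p = 0.786 and 0.398). For 1370245_at the sham level also moved, with all 7 d sham rats above all 2 d sham rats (log2 difference 0.44, SE 0.16, limma adjusted p = 0.389). Set against the 7 d sham rats instead of its own shams, the 2 d IR change of this probe set was 0.32 (limma adjusted p = 0.324), a control chosen after seeing the data. At 7 d both probe sets passed against the 6 sham rats of both days, with log2 changes of 0.42 for 1370244_at and 0.65 for 1370245_at (limma adjusted p = 0.0446 and 0.0102). 1370245_at also passed at 7 d without 7 d sham rat 80 (0.58, limma adjusted p = 0.0302). The 2 d calls of both probe sets were lost without rat 69 (log2 changes 0.58 and 0.62, limma adjusted p = 0.225 and 0.166), 76, 71 or 72. That of 1370244_at was also lost without rat 47 or 48, and that of 1370245_at without rat 74.

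Cathepsin Z, a carboxypeptidase also called cathepsin X, had the largest 2 d change of the 12. The Ctsz probe set (1370885_at) read 4224, 3755 and 2647 in 7 d IR rats, against 1532, 1818 and 1135 in 7 d sham rats. It read 5719, 2608 and 3042 in 2 d IR rats, against 866, 999.9 and 1458 in 2 d sham rats. IR and sham rats did not overlap on either day, and rat 69 was the highest of all 12. Ctsz rose 2.21-fold at 7 d (log2 change 1.14, SE 0.26, limma adjusted p = 0.0152) and 2.95-fold at 2 d (log2 change 1.56, SE 0.26, limma adjusted p = 0.0147). The 7 d effect minus the 2 d effect was -0.42 on the log2 scale, with a 95% interval of -1.21 to 0.37. The 7 d call was lost without rat 82 (log2 change 0.98, limma adjusted p = 0.0783), 44 or 47. The 2 d call was lost without rat 69 (1.24, limma adjusted p = 0.062), 71 or 72.

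Cathepsin B, an abundant lysosomal enzyme that cleaves both within proteins and from their carboxyl end, rose by smaller amounts on both days. The Ctsb probe set (1367646_at) read 21202, 24714 and 21439.7 in 7 d IR rats, against 17012, 17862 and 12728 in 7 d sham rats. It read 28763, 21584 and 22397 in 2 d IR rats, against 15521, 15207 and 16828 in 2 d sham rats. The groups were apart on both days. Ctsb rose 1.42-fold at 7 d (log2 change 0.51, SE 0.14, limma adjusted p = 0.0303) and 1.51-fold at 2 d (log2 change 0.60, SE 0.14, limma adjusted p = 0.0414). The 7 d effect minus the 2 d effect was -0.09, with a 95% interval of -0.51 to 0.33. Both calls lay near the threshold. At 7 d it was lost without rat 82 (log2 change 0.36, limma adjusted p = 0.145), 44, 47 or 48, and at 2 d without rat 69 (0.47, adjusted p = 0.21), 76, 71, 72 or 74. The 7 d call was also lost with no filter on dim probe sets (limma adjusted p = 0.0544). The same held with no intensity trend (limma adjusted p = 0.0593) and with the compared arrays alone (adjusted p = 0.0538). The 2 d call was also lost with median centring, no filter or no intensity trend.

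Cathepsin H, an aminopeptidase, passed the test at 7 d. The Ctsh probe set (1386899_at) read 6929, 7024 and 6327 in 7 d IR rats, against 4392, 4994 and 3592 in 7 d sham rats. It read 5736, 4412 and 4709.8 in 2 d IR rats, against 4003, 4577 and 3956 in 2 d sham rats. The 7 d IR rats were above all other rats, and the 2 d IR and 2 d sham rats overlapped. Ctsh rose 1.55-fold at 7 d (log2 change 0.63, SE 0.14, limma adjusted p = 0.0124), and its 2 d change was 0.23 (SE 0.14, adjusted p = 0.354). The effects differed by 0.40, with a 95% interval of -0.009 to 0.81 (limma, unadjusted p = 0.0546, adjusted p = 0.698). The 7 d call was lost in 1 of 12 fits, the one without rat 82 (log2 change 0.51, limma adjusted p = 0.0638).

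**Figure D2:**
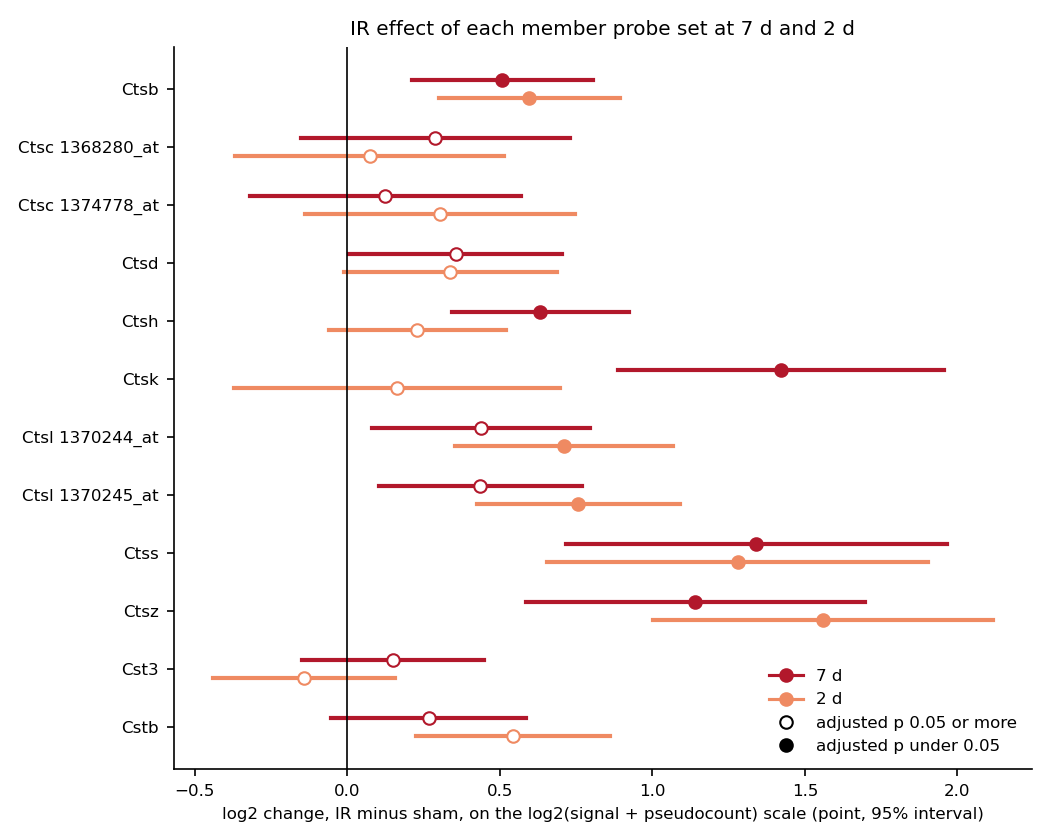
Log2 change, IR minus sham, of each probe set at 7 d (upper symbol) and 2 d (lower symbol), with the 95% interval of the limma fit; filled symbols passed the test. Ctsk at 7 d (1.42) and Ctsz at 2 d (1.56) are the largest changes, and the 7 d and 2 d intervals of Ctsk do not overlap.

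Cathepsin D and cathepsin C passed the test on neither day. Cathepsin D is an aspartic protease and among the most abundant lysosomal enzymes. The Ctsd probe set (1367651_at) read 15519.6, 18512 and 19297 in 7 d IR rats, against 13849, 11352 and 16686 in 7 d sham rats. It read 26058, 18176 and 22385 in 2 d IR rats, against 14642, 17929 and 19919.6 in 2 d sham rats, with overlap on both days. Its log2 changes were 0.36 at 7 d (SE 0.16, limma adjusted p = 0.171) and 0.34 at 2 d (SE 0.16, adjusted p = 0.252).

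Cathepsin C, the dipeptidyl peptidase that activates the serine proteases of granulocytes and mast cells, was read by 2 probe sets that put the larger change on different days. The probe set 1368280_at read 3553, 1972 and 2561 in 7 d IR rats, against 2919.6, 1875 and 1713 in 7 d sham rats, and changed by 0.29 (SE 0.21, limma adjusted p = 0.394). Its 2 d change was 0.07 (SE 0.21, adjusted p = 0.885), with 2 d IR rats at 2823, 2112 and 2479, against 2147, 2618 and 2232 in 2 d sham rats. IR and sham rats overlapped on both days. The probe set 1374778_at read 3729, 2399 and 2494 in 7 d IR rats, against 2325, 3594 and 2019 in 7 d sham rats, with a log2 change of 0.12 (SE 0.21, limma adjusted p = 0.74). At 2 d it read 4010.5, 2683 and 2774 in 2 d IR rats, against 2486, 2412 and 2545 in 2 d sham rats, which did not overlap (log2 change 0.30, SE 0.21, limma adjusted p = 0.43). The sign of its 7 d change turned without rat 44 or rat 82, and that of 1368280_at at 2 d turned without rat 69.

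The cystatins passed the test on neither day. Cystatin C, the secreted inhibitor of cysteine cathepsins (Cst3, 1370855_at), read 22304, 20764 and 24308 in 7 d IR rats, against 22476, 16577 and 22054 in 7 d sham rats. It read 15907, 18087 and 20752 in 2 d IR rats, against 21833, 17249 and 21436 in 2 d sham rats, and the groups overlapped on both days. Its log2 change was 0.15 at 7 d, with a 95% interval of -0.15 to 0.45 (limma adjusted p = 0.527), and -0.14 at 2 d, with an interval of -0.44 to 0.16 (adjusted p = 0.608). Cst3 was the 1 member of the 12 with a negative change at 2 d.

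Cystatin B, an inhibitor inside the cell (Cstb, 1370226_at), read 6068, 5941 and 5582 in 7 d IR rats, against 4839.6, 5208 and 4502 in 7 d sham rats. It read 9495, 5699 and 7789 in 2 d IR rats, against 5405, 5072 and 4806 in 2 d sham rats. IR rats lay above sham rats on both days without overlap. Its log2 change was 0.27 at 7 d (SE 0.15, limma adjusted p = 0.265) and 0.54 at 2 d (SE 0.15, adjusted p = 0.0644). The 2 d change passed the test without 2 d IR rat 73, the lowest of its group (log2 change 0.74, limma adjusted p = 0.0115).

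Comparing the IR rats of both days directly, 1 of the 12 probe sets, Ctsk, was higher at 7 d, by 3.06-fold (log2 difference 1.61, SE 0.25, limma adjusted p = 0.00234), and 0 were lower. Of all tested probe sets, 2.45% were higher and 0.997% lower in 7 d IR than in 2 d IR rats. Without overlap of the IR groups, 3 of the 12 were higher at 7 d and 1 (Ctsl 1370244_at) was lower, against 10.6% and 9.91% of all tested probe sets. Ctsh differed by 0.44 (SE 0.14, limma adjusted p = 0.0955), and it passed without rat 69 (0.55, adjusted p = 0.0475). Cst3 differed by 0.30 (SE 0.14, limma adjusted p = 0.2995), and both lay without overlap. Cstb differed by -0.35 (SE 0.15, limma adjusted p = 0.262) and passed, as lower at 7 d, without rat 73 (-0.54, adjusted p = 0.0485). Between the sham groups, 0 of the 12 probe sets passed in 7 d sham against 2 d sham with limma (0.076% of all). Of the 12, 1 (Ctsl 1370245_at) had an unadjusted p under 0.05 (9.42% of all), and the same 1 was higher without overlap (7.27% of all). These comparisons share arrays with those of IR against sham.

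**Figure D3:**
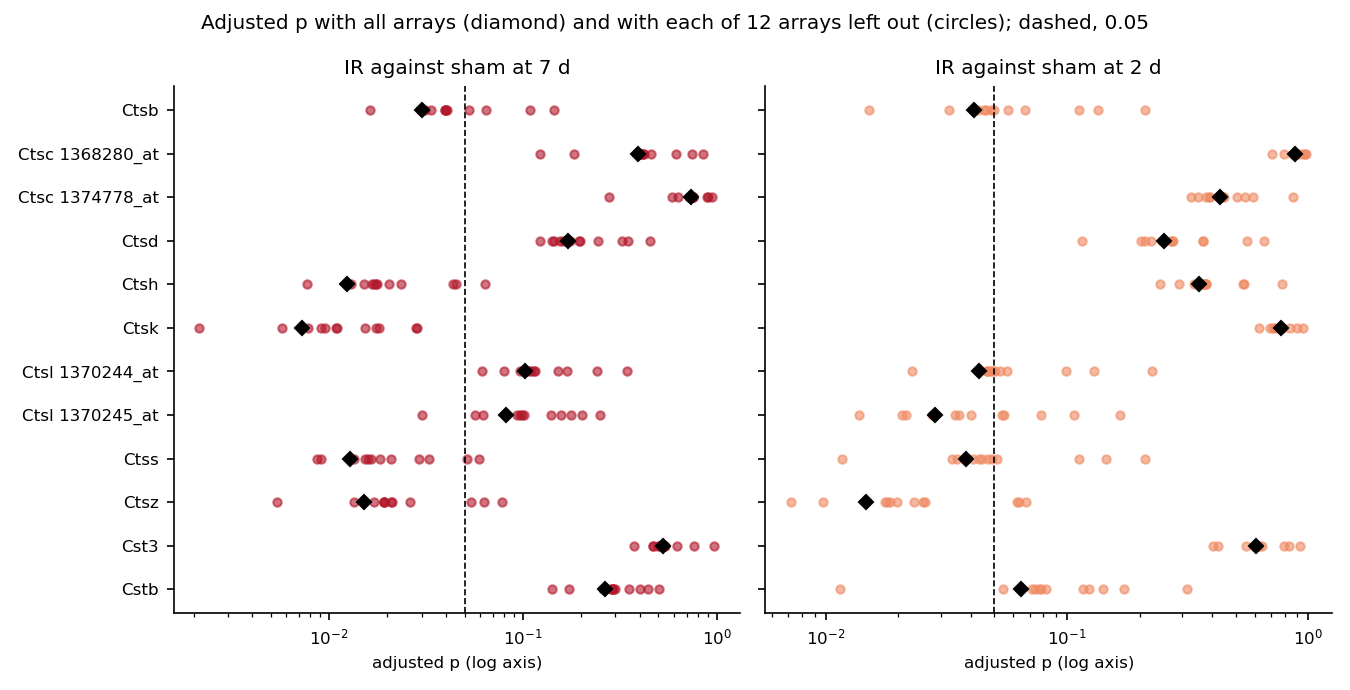
Limma adjusted p (log axis) of the IR effect on each day for each probe set, with all arrays (diamond) and with each of the 12 arrays left out in turn (circles); the dashed line is 0.05. At 7 d all circles of Ctsk lie left of the line, and at 2 d each of the 5 probe sets that passed has circles on both sides.

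Markers of some cell types, chiefly macrophages, fibroblasts and cardiomyocytes, also changed after IR. For this list and those below, the counts stand beside all 7720 tested genes, with 1 probe set each. Of these genes, 6.4% rose and 6.57% fell at 7 d, and 1.98% rose and 0.635% fell at 2 d. For IR against sham, no such share is given at an unadjusted p under 0.05, so counts at that level are a description. Of 16 measured macrophage and monocyte markers, 11 rose and 0 fell at 7 d, and 8 rose and 0 fell at 2 d, with median log2 changes of 0.91 and 1.02. Their summed signal was 114613 to 132706 in 7 d IR rats and 45865 to 80051 in 7 d sham rats, and 104069 to 161760 in 2 d IR rats and 47146 to 68529 in 2 d sham rats. Rat 69 was the highest of the 12 rats in the mean of this list and rat 82 the lowest, at 0.84 and -0.85 on a log2 scale centred on the mean of the 12 arrays. The macrophage markers Tyrobp and Fcer1g, adaptor proteins of myeloid receptors, rose at 7 d by 0.95 and 0.85 and at 2 d by 1.28 and 1.03 (log2; limma adjusted p = 0.0122, 0.0107, 0.0132 and 0.0163).

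Of 14 fibroblast and myofibroblast markers, 10 rose and 0 fell at 7 d, and 0 passed at 2 d with limma (7 had an unadjusted p under 0.05), with median log2 changes of 1.25 and 0.48. Their summed signal was 225777 to 290892 in 7 d IR rats and 97676 to 174225 in 7 d sham rats, and 98999 to 117844 in 2 d IR rats and 81144 to 91014 in 2 d sham rats. Like Ctsk, this list was highest in the 7 d IR rats. Of 14 cardiomyocyte markers, 7 fell at 7 d and 1, Tnni3, at 2 d, and 0 rose. Their summed signal was 464112 to 517592 in 7 d IR rats and 626264 to 719188 in 7 d sham rats, and 484307 to 642131 in 2 d IR rats and 659502 to 741830 in 2 d sham rats, so that heart muscle transcripts were present in all 12 samples.

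Osteoclast markers, the cells best known for cathepsin K, were poorly covered: Acp5 and Calcr were tested, with log2 changes at 7 d of 0.25 and -0.16 (limma adjusted p = 0.521 and 0.674), and Mmp9 was on the array but too dim to test. Of 3 neutrophil markers tested, S100a8 rose at 7 d by 1.51 (limma adjusted p = 0.0355), and 0 passed at 2 d (2 had an unadjusted p under 0.05). The summed signal of the 3 overlapped at 7 d, at 16561 to 50356 in 7 d IR rats and 9855 to 45481 in 7 d sham rats. At 2 d it was 11930 to 20589 in 2 d IR rats and 8110 to 11626 in 2 d sham rats. Of 5 lymphocyte markers, Cd4, which rat macrophages also carry, rose at 7 d by 0.75 (limma adjusted p = 0.0234), and 0 passed at 2 d (0 at an unadjusted p under 0.05). Of 2 mast cell markers, 0 passed on either day (0 at an unadjusted p under 0.05), and of 10 endothelial markers 1, Esam, rose at 7 d. The ratio of the 3′ to the 5′ probe set of Actb, a sign of RNA integrity, was 0.11 to 0.23 in 7 d IR rats and 0.38 to 0.82 in 7 d sham rats on the log2 scale. It was 0.16 to 0.30 in 2 d IR rats and 0.13 to 0.31 in 2 d sham rats. For Gapdh the same ratio overlapped at 7 d, at 0.27 to 0.38 in 7 d IR rats and 0.31 to 0.44 in 7 d sham rats, as did that of hexokinase, at 0.54 to 0.69 in 7 d IR rats and 0.53 to 0.80 in 7 d sham rats. The part of cell makeup and of RNA integrity in the cathepsin changes was not tested.

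**Figure D4:**
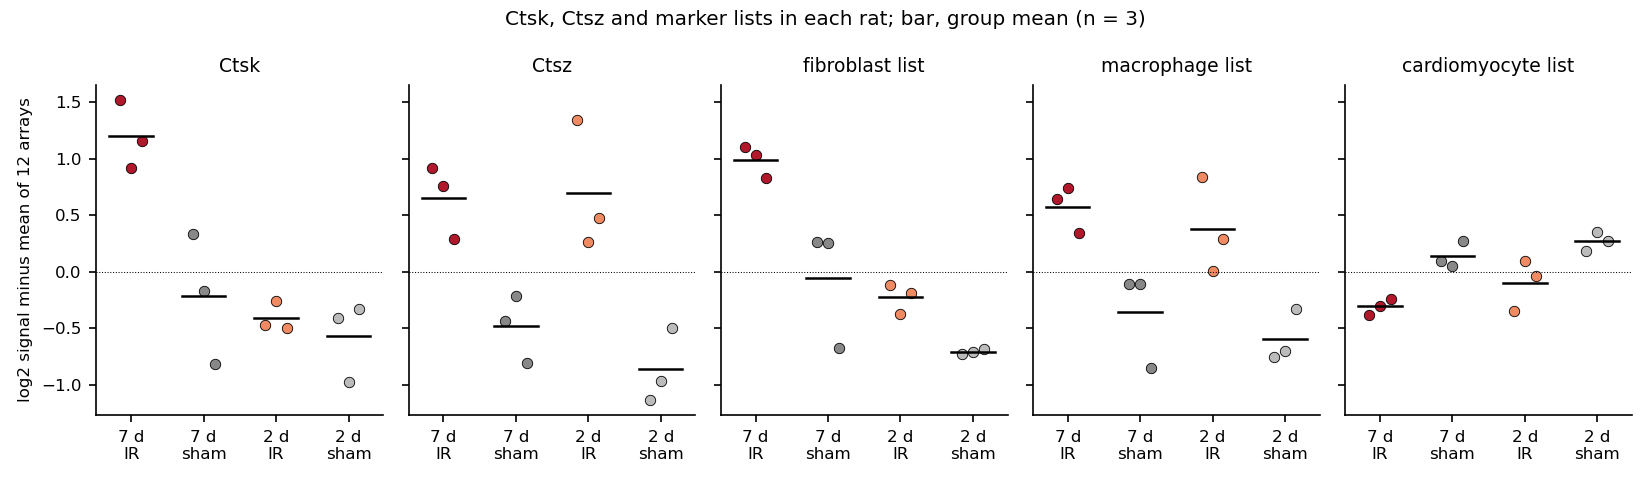
Log2 signal minus its mean over the 12 arrays, for Ctsk, Ctsz and the mean of the fibroblast, macrophage and cardiomyocyte marker lists; points are rats and bars are group means (n = 3). Ctsk and the fibroblast list are highest in the 7 d IR rats. Ctsz and the macrophage list are higher in IR than in sham rats on both days. In the macrophage list, 2 d IR rat 69 is on top (0.84), while 2 d IR rat 73 (0.0084) lies near the mean of the 12 arrays. Rat 69 is also the highest for Ctsz.

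Few other cathepsins and inhibitors were bright enough to test. Of 3 other cathepsins tested, 1 rose at 7 d and 0 passed at 2 d (2 had an unadjusted p under 0.05). The 1 was Ctsa, a serine carboxypeptidase that also protects other lysosomal enzymes, with a log2 change of 0.84 at 7 d (limma adjusted p = 0.0129) and 0.57 at 2 d (adjusted p = 0.0977). Ctsf, a cysteine cathepsin, changed by 0.34 at 7 d and 0.07 at 2 d and did not pass (limma adjusted p = 0.137 and 0.824). Of 3 other inhibitors tested, with no cystatin among them, 2 rose at 7 d and 0 passed at 2 d (1 had an unadjusted p under 0.05). The 2 were intracellular serpins: Serpinb9, the inhibitor of granzyme B (0.88, limma adjusted p = 0.00946), and Serpinb6a (0.56, adjusted p = 0.0285). The remaining inhibitor, Ctla2a, changed by 0.0593 at 7 d and 0.0143 at 2 d and did not pass on either day with limma. Whether the 2 serpins block cysteine cathepsins in these hearts was not tested.

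Of 11 genes of cathepsin sorting, processing and lysosome biogenesis, 2 rose and 1 fell at 7 d, and 1 rose and 0 fell at 2 d. M6pr, a mannose 6-phosphate receptor that carries cathepsins to the lysosome, rose on both days, by 0.41 and 0.46 at 7 d and 2 d (limma adjusted p = 0.0284 and 0.0435). Grn, whose product progranulin is processed in the lysosome, rose at 7 d (0.61, limma adjusted p = 0.0213), and Mitf, a transcription factor related to TFEB, fell at 7 d (-0.53, adjusted p = 0.0166). Lgmn, legumain, which processes several cathepsin precursors, changed by 0.61 at 7 d and 0.82 at 2 d without passing (limma adjusted p = 0.0782 and 0.0553). Tfeb, the factor known for binding E-boxes of lysosomal genes, changed by -0.10 at 7 d and -0.17 at 2 d (limma adjusted p = 0.787 and 0.673).

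Of 28 lysosomal hydrolases other than cathepsins, 7 rose and 1 fell at 7 d, and 2 rose and 0 fell at 2 d, with median log2 changes of 0.38 and 0.20. Over all 7720 tested genes, with 1 probe set each, 6.4% rose and 6.57% fell at 7 d, and 1.98% rose and 0.635% fell at 2 d. Between 7 d IR and 2 d IR rats, 2 of the 28 hydrolases (Glb1 and Man2b1) were higher and 1 (Ppt2) was lower at 7 d. Of all tested genes, 2.62% were higher and 1.14% lower. Scpep1, a serine carboxypeptidase, rose 2.82-fold at 7 d (log2 change 1.50, limma adjusted p = 0.00946). Aga, which cuts sugar from asparagine, rose by 0.91 at 7 d (limma adjusted p = 0.00774), and Gusb, beta-glucuronidase, rose by 0.83 and 0.65 at 7 d and 2 d (adjusted p = 0.00319 and 0.0176). Gm2a, the activator of ganglioside breakdown, rose at 2 d by 0.94 (limma adjusted p = 0.0285), and Ppt2, a thioesterase, fell at 7 d (-0.77, adjusted p = 0.0246). 

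Genes of the lysosomal membrane and of its proton pump were counted in the same way. Of 11 membrane and lipid transfer genes, 2 rose at 7 d (Laptm5, a membrane protein of blood cells, 0.79, and Npc2, a cholesterol carrier, 0.62; limma adjusted p = 0.0196 and 0.0276). At 2 d 1 rose (Laptm5, 0.93, limma adjusted p = 0.0285), and 0 fell on either day. The main membrane proteins Lamp1 and Lamp2 changed by -0.0040 and 0.0041 at 7 d and by 0.10 and 0.06 at 2 d (limma, adjusted p between 0.701 and 0.986). Of 14 subunits of the proton pump that acidifies the lysosome, 0 passed on either day with limma (4 on each day had an unadjusted p under 0.05), and the median log2 change was 0.05 at 7 d and 0.002 at 2 d. No share over all genes is given here at that unadjusted level, so the 4 on each day were not set against the array and are a description.

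The genes whose 12 values lay nearest to those of a member were found by the root mean square difference of log2 signals, each centred on its own mean, over the 12 arrays and 8924 probe sets. For Ctsk these were Cyp1b1 (0.234), Mmp2 (0.242), Ccn5 (0.250), Fibin (0.258) and Fbn1 (0.276), against a median of 0.796 over all probe sets compared. Each of the 5 rose at 7 d and did not pass at 2 d with limma. The 5 were picked by likeness to Ctsk on the same arrays, so this pattern largely follows from the choice. The second Mmp2 probe set, 1369825_at, did not follow, with a log2 change of -0.09 at 7 d (limma adjusted p = 0.831). For Ctsz the nearest were Tpm3 (0.180), Tyrobp (0.201), Tpm4 (0.205), Tubb6 (0.210) and Cotl1 (0.211), against a median of 0.791. Each of these 5 rose on both days, which likewise largely follows from how they were picked. The 7 tested Tpm3 probe sets differ among themselves, with log2 changes at 7 d from -0.15 (1389846_at) to 1.30 (1387918_at).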

How the data were processed

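The deposited values are 1 intensity per probe set and array on a linear scale, which the authors made with MAS5 according to the submitters' processing notes (no version or detection calls are stated). Array means trimmed by 2% at both ends were 1500.4 to 1500.5, which shows that the deposited intensity values had been scaled per array. Arrays have no read depth, and their number limits the precision. No 2 arrays held identical values (0 pairs). The array has 15923 probe sets, 57 of them controls. A filter kept the 10527 non-control probe sets whose signal exceeded the 40th percentile on 3 or more arrays. Log2(signal + 195) was used, where 195 is the median of the arrays' 20th percentiles, so that a fold change understates changes of dim genes. Gene names came from GEO's platform annotation (12789 probe sets with 1 symbol).

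Limma 3.58.1 in R 4.3.3 fitted 1 mean per group over all 12 arrays with an intensity trend in the variance. The 4 groups thus share 1 variance per probe set. Tests of the 5 comparisons were 2-sided, with Benjamini-Hochberg adjustment over the tested probe sets. The procedure was also run on simulated data with independent noise for each probe set. These held no outlying arrays, so the run checks the code and not the calls in these data. A probe set was led by the day with the larger positive change. Outside the members, the probe set with the highest mean stood for a gene, up to 4 passing genes with the largest changes were named per list, and up to 2 others. In the cell marker lists, beyond the markers given singly, Tyrobp, Fcer1g and Esam were picked after their values were seen. The members and lists were chosen with earlier results of these data known. Alternatives were another pseudocount (16), quantile normalization, median centring, no filter, no trend, the compared arrays alone, each array left out, rats 69 and 82 left out together, the 6 shams of both days as control and, chosen after seeing the data, the shams of the other day.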

Additional observations from a re-analysis of the deposited data

How the results depend on the processing

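No paired analysis was possible because the 4 groups share no replicate numbers. Leaving out 1 array at a time gave 1 to 6 member probe sets past the threshold for IR against sham at 7 d (5 with all arrays), 0 to 6 at 2 d (5 with all arrays) and 1 to 2 for 7 d IR against 2 d IR (1 with all arrays). Over all probe sets these fits gave 175 to 1463 calls at 7 d (1270 with all arrays), 2 to 515 at 2 d (260) and 192 to 439 for 7 d IR against 2 d IR (363). The 7 d count was 7 against the 6 sham arrays of both days (2428 over all probe sets) and 6 against the 2 d shams (2505), both with Ctsl 1370245_at. It was 4, without Ctsb, with no filter on dim probe sets (898 over all), no intensity trend (942) or the compared arrays alone (940). The 2 d count was 2 with no filter on dim probe sets (77 over all), 1 with no intensity trend (68), 1 without rats 69 and 82 together (70) and 0 with the 7 d sham arrays as control (75). The shams of the other day as control were chosen after seeing the data. The count for 7 d IR against 2 d IR was 2 without rats 69 and 82 together (556 over all probe sets). For the difference of the IR effects and for 7 d sham against 2 d sham the count was 0 in every fit run with limma. Changes that turned sign were all among those that had not passed. At 7 d, Ctsc 1374778_at ranged from -0.066 to 0.35 over the fits without 1 array and was -0.0361 without rats 69 and 82. At 2 d, Ctsc 1368280_at ranged from -0.0207 to 0.17 and was -0.0207 without rats 69 and 82. Ctsk at 2 d ranged from -0.0425 to 0.28, and was -0.0159 against the 6 sham arrays of both days and -0.19 against the 7 d shams. The difference of effects ranged over the fits without 1 array from -0.24 to 0.0389 for Ctsb, -0.37 to 0.0490 for Ctsc 1374778_at, -0.12 to 0.15 for Ctsd and -0.30 to 0.31 for Ctss, which was -0.0933 without rats 69 and 82. The cause of these changes was not tested. Each of the 5 calls at 2 d was lost in at least 1 fit without 1 rat, as was each at 7 d except Ctsk. With 3 rats per group, an exact permutation test of 3 against 3 could not go below p = 0.1.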

Other observations

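Matrix proteins that cathepsins K, L and S can cleave were also measured, as 11 genes. Of these, 5 rose and 0 fell at 7 d, and 1 rose and 0 fell at 2 d, with median log2 changes of 0.84 and 0.34. Over all 7720 tested genes, 6.4% rose and 6.57% fell at 7 d, and 1.98% rose and 0.635% fell at 2 d. At 7 d Col1a2 and Col1a1, the chains of type I collagen, rose by 1.37 and 1.25 (limma adjusted p = 0.0188 and 0.0248). Sparc, a collagen-binding protein, rose by 1.07 (adjusted p = 0.00323 with limma), and Eln, elastin, by 0.98 (adjusted p = 0.0157). At 2 d Fn1, fibronectin, rose by 1.39 (limma adjusted p = 0.0433). Between 7 d IR and 2 d IR rats, 6 of the 11 were higher and 1 was lower at 7 d, against 2.62% and 1.14% of all tested genes. The lower one was Spp1, osteopontin, with a log2 difference of -3.00 (limma adjusted p = 0.0054), and its changes against sham, 0.84 at 7 d and 1.73 at 2 d, did not pass (adjusted p = 0.329 and 0.0856). The median log2 difference of the 11 genes, 7 d minus 2 d, was 1.07 in IR rats and 0.62 in sham rats. Between the sham groups 0 of the 11 passed with limma. There 8 of the 11 had an unadjusted p under 0.05, against 9.42% of all tested probe sets. For the difference of the IR effects 0 of the 11 passed with limma. The shift between days was thus not confined to the IR rats. Several of these 11 genes are also in the fibroblast marker list. Because this list was chosen with earlier results known, its counts are a description.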
